A study of Homo sapiens with 40 samples.

Results

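Bile acid synthesis and transport was followed through 10 genes, chosen by name from the 56568 gene names in the deposited tables. They were the synthesis enzymes CYP7A1, CYP7B1, CYP8B1 and CYP27A1, the conjugation enzymes BAAT and SLC27A5, the transporters SLC10A1 and ABCB11, and the nuclear receptors NR1H4 and NR0B2. Differentiated HepaRG cells (HPR 116), a human liver cell line that forms a mixed culture of hepatocyte-like and primitive biliary cells, were kept in culture until day 8 and exposed from day 8 to day 14. All groups received medium with serum and DMSO, and the controls received the solvent alone. The 8 groups of 5 libraries were solvent control, PCB 126, a dioxin-like polychlorinated biphenyl, in doses of 100 pM, 10 nM or 1 µM, the herbicide glyphosate in doses of 0.1 g/L, 1 mg/L or 10 µg/L, and the commercial glyphosate-based herbicide Roundup in a single dose of 10 µg/L. Nothing in the labels says that the 5 libraries of a group came from separate cultures, so p-values measure the spread between these libraries, which may be technical.

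Bile acids are made from cholesterol in hepatocytes. The classical route opens with CYP7A1, its rate-limiting 7α-hydroxylase, and the alternative route opens with the sterol 27-hydroxylase CYP27A1 and runs through the oxysterol 7α-hydroxylase CYP7B1, while the 12α-hydroxylase CYP8B1 sets the share of cholic acid. SLC27A5 activates bile acids as coenzyme A thioesters, BAAT joins them to glycine or taurine, SLC10A1 (NTCP) takes them up from blood and ABCB11 (BSEP) exports them into bile. NR1H4 (FXR) is the receptor that senses bile acids, and its target NR0B2 (SHP) represses CYP7A1.

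Levels are FPKM, fragments scaled to transcript length and to the mapped fragments of the library, summed over the transcripts of a gene. They are scaled per length, so levels of different genes can be set side by side. The tables hold no counts, and the number of fragments behind each value was not derived here. The 40 libraries had 71169 to 118592 transcripts above 0 FPKM, and control replicate 5, replicates 3 and 5 at 10 nM and replicates 1 and 5 at 1 µM had the fewest of the 20 libraries in the PCB 126 table. CYP1A1, the classical target of the receptor that PCB 126 activates, was checked as a sign of exposure. It lay between 0 and 7.69 FPKM in the controls, 1.09 and 319 FPKM at 100 pM, 92.1 and 377 FPKM at 10 nM and 85.2 and 389 FPKM at 1 µM. The highest herbicide library had 6.49 FPKM.

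The genes differed widely in level before any exposure. Mean control levels were 42.2 ± 7.66 FPKM for BAAT, 10.9 ± 2.45 for CYP27A1, 8.38 ± 3.75 for NR1H4, 7.33 ± 2.91 for CYP7B1, 1.97 ± 0.933 for NR0B2 and 1.26 ± 0.340 for CYP7A1 (FPKM, SD, n = 5 each). The remaining 4 genes were below 1 FPKM on average. SLC10A1 had 0.573 ± 0.171, SLC27A5 0.554 ± 0.216, CYP8B1 0.339 ± 0.139 and ABCB11 0.0921 ± 0.0355 (FPKM, SD, n = 5). The conjugating enzyme BAAT was therefore the most abundant of the 10 transcripts, and the bile salt exporter ABCB11 the least.

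**Figure D1:**
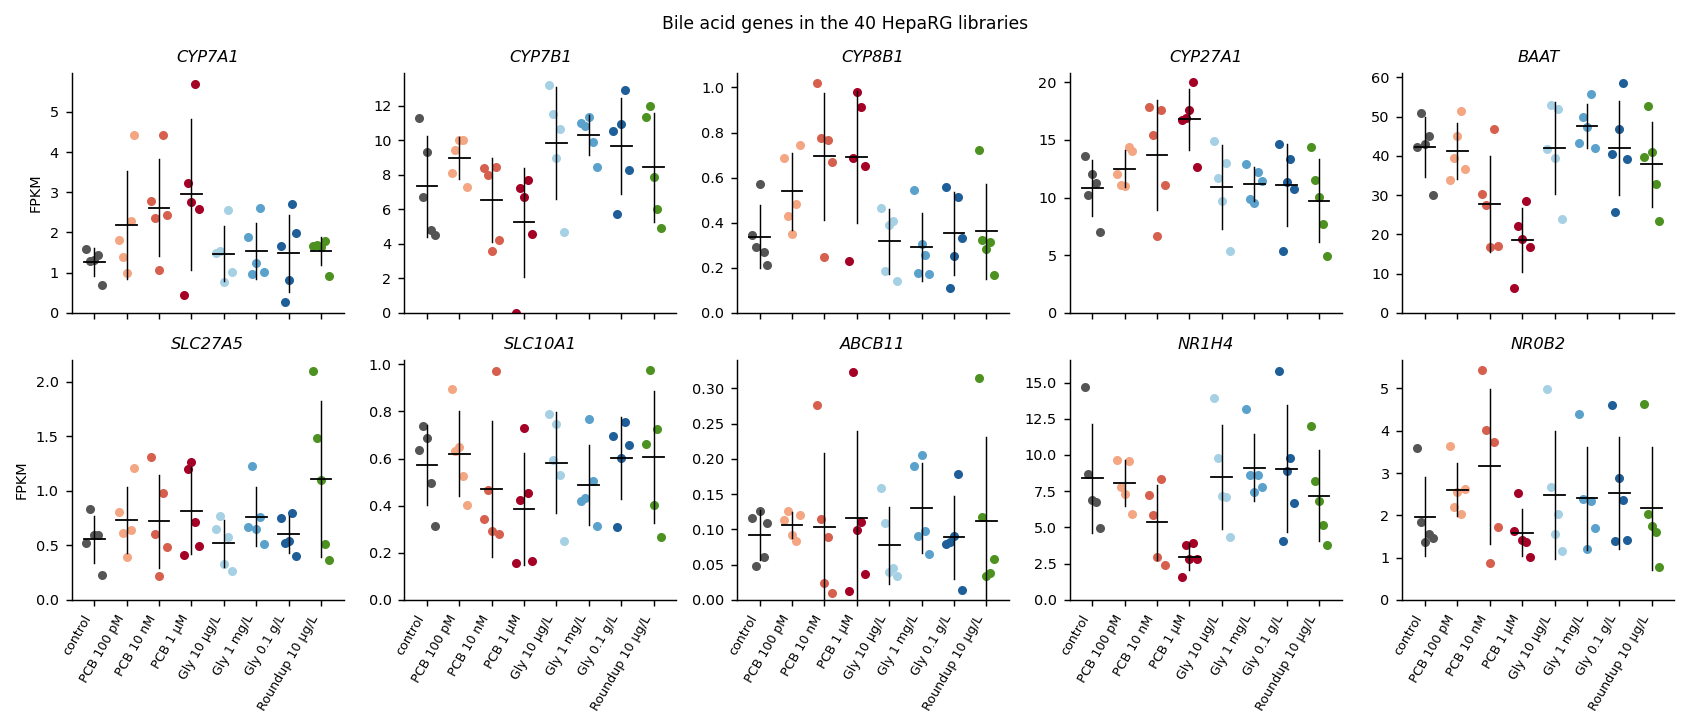
FPKM of the 10 bile acid genes (vertical axes, linear, each on its own scale) in the 5 libraries of each of the 8 groups (horizontal axis). Points are libraries, horizontal bars group means and vertical bars 1 SD, cut at 0. At 1 µM PCB 126 all 5 BAAT values (6.39 to 28.4 FPKM) and all 5 NR1H4 values (1.61 to 3.90 FPKM) lay under the control values.

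Exposure to PCB 126 was compared with control at each concentration to ask whether the pathway's transcripts changed with dose. At 1 µM, BAAT and NR1H4 fell to 0.439 and 0.357 of their control means, and none of the 10 genes passed the test at 100 pM or 10 nM. Differences below are of log2(FPKM + 1), fitted with limma across all genes whose FPKM variance was above 1, with Benjamini-Hochberg adjustment and a threshold of 0.05. This filter left 9755 genes and 6 of the 10 members in the PCB 126 table, and CYP8B1, SLC27A5, SLC10A1 and ABCB11 were not tested by limma. Over all genes tested, 0% passed at 100 pM and 0.205% at 10 nM. At 1 µM 1.87% passed, where 1.22% were lower and 0.646% higher. The 3 comparisons share the control libraries. The median difference over all genes was -0.26 at 1 µM, -0.21 at 10 nM and 0.07 at 100 pM, and the differences of the members can be read against it.

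Among the synthesis enzymes, CYP7A1 read 1.58, 1.30, 1.30, 1.45 and 0.692 FPKM in the 5 controls. It read 1.81, 1.40, 1.00, 2.29 and 4.41 FPKM at 100 pM, and 2.78, 2.37, 1.07, 4.43 and 2.44 FPKM at 10 nM. At 1 µM it read 0.455, 3.24, 2.76, 5.69 and 2.59 FPKM. At 10 nM and 1 µM, 4 of 5 libraries were above every control, and the fifth lay within or under the control range. The mean at 1 µM was 2.33 times that of control, with a log2 difference of 0.66 ± 0.33 (SE) that did not pass the test (limma, adjusted p = 0.391). CYP7A1 met the variance filter only in the PCB 126 data, through its values in the exposed groups. Without the filter the adjusted p at 1 µM was 0.618 (limma). At 10 nM the difference was 0.62 (limma, adjusted p = 0.865). The exact two-sided permutation test of this gene alone gave p = 0.0397 at 10 nM and p = 0.143 at 1 µM, unadjusted among 80 such tests over the 10 genes. The 1 µM library with the low value, replicate 1, was also among those with the fewest transcripts. Without that library the difference was 0.98 (limma, adjusted p = 0.119). The group medians of CYP7A1 ran from 2.76 FPKM at 1 µM through 2.44 at 10 nM and 1.81 at 100 pM to between 1.24 and 1.67 FPKM in the control and herbicide groups, and neighbours in this order overlapped.

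CYP27A1, which makes 27-hydroxycholesterol in mitochondria, read 13.6, 10.3, 12, 11.3 and 7.06 FPKM in control. At 10 nM it read 17.8, 15.4, 6.69, 17.6 and 11.1 FPKM, and at 1 µM 16.7, 16.9, 17.6, 20.0 and 12.7 FPKM. At 1 µM, 4 of 5 libraries lay above every control and the remaining library lay between the 2 highest controls. The mean was 1.55 times that of control, with a log2 difference of 0.60 ± 0.25 (SE) and a 95% interval of 0.08 to 1.12, or 0.86 above the median of all genes. It did not pass the test over all genes (limma, adjusted p = 0.276), and the exact permutation test of the gene alone gave p = 0.0159. It passed when the libraries were rescaled to a common 75th percentile (difference 0.76, limma, adjusted p = 0.00748). It also passed when the libraries with the fewest transcripts were left out (difference 0.59, limma, adjusted p = 0.0188), a setting added after the data were seen.

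CYP7B1 read 11.3, 6.73, 9.30, 4.81 and 4.54 FPKM in control and 0, 7.26, 6.73, 7.68 and 4.56 FPKM at 1 µM. In replicate 1 at 1 µM it was listed at 0, which can be a failed estimate, and the other 4 libraries lay inside the control range. Its log2 difference at 1 µM was -0.67 (limma, adjusted p = 0.491). CYP8B1 read 0.213 to 0.571 FPKM in control, 0.249 to 1.02 FPKM at 10 nM and 0.231 to 0.978 FPKM at 1 µM. In both of these groups 4 of 5 libraries were above every control. The mean was 2.05 times that of control at 10 nM and 2.04 times at 1 µM, at levels near or below 1 FPKM. The difference in mean log2(FPKM + 1) gave p = 0.0476 at 10 nM and p = 0.0635 at 1 µM (exact two-sided permutation, n = 5 per group).

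BAAT, the bile acid conjugating enzyme, read 42.2, 50.8, 43.0, 45.1 and 29.9 FPKM in control. It read 33.8, 39.5, 45.0, 51.3 and 36.6 FPKM at 100 pM, and 30.2, 27.5, 16.9, 46.8 and 17.1 FPKM at 10 nM. At 1 µM it read 6.39, 22.2, 18.9, 28.4 and 16.8 FPKM. The values at 10 nM overlapped those of control in 2 of 5 libraries, and the values at 1 µM did not overlap them. The log2 difference at 1 µM was -1.26 ± 0.32 (SE) with a 95% interval of -1.91 to -0.61, or -1.0 relative to the median of all genes (limma, adjusted p = 0.0348). The exact permutation test gave p = 0.00794, the smallest that 5 libraries against 5 allow. Of all genes tested, 1.64% had all 5 values at 1 µM under the 5 control values and 0.707% had all 5 above them. At 10 nM the log2 difference was -0.67 (limma, adjusted p = 0.865), and at 100 pM it was -0.03. The group medians of BAAT lay between 39.5 and 47.3 FPKM in control, at 100 pM and in the 4 herbicide groups, against 27.5 FPKM at 10 nM and 18.9 FPKM at 1 µM.

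SLC27A5, the bile acid coenzyme A ligase, read 0.229 to 0.833 FPKM in control and 0.411 to 1.27 FPKM at 1 µM (exact permutation, p = 0.246). The transporters stayed low in every group. SLC10A1, the sodium-dependent uptake carrier, read 0.314 to 0.736 FPKM in control, 0.279 to 0.971 FPKM at 10 nM and 0.157 to 0.730 FPKM at 1 µM (1 µM, exact permutation, p = 0.183). ABCB11, the canalicular export pump, read 0.0478 to 0.127 FPKM in control and 0.0128 to 0.324 FPKM at 1 µM (exact permutation, p = 0.849). No difference of these 3 genes was detectable at such levels, which does not show that they were equal.

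NR1H4 read 14.7, 8.66, 6.88, 6.77 and 4.94 FPKM in control. It read 9.69, 7.79, 7.30, 9.56 and 5.94 FPKM at 100 pM, and 7.21, 5.86, 2.99, 8.34 and 2.40 FPKM at 10 nM. At 1 µM it read 1.61, 3.80, 2.81, 3.90 and 2.84 FPKM, all under the lowest control. The log2 difference at 1 µM was -1.19 ± 0.30 (SE) with a 95% interval of -1.80 to -0.57, or -0.93 relative to the median of all genes (limma, adjusted p = 0.0348; exact permutation, p = 0.00794). At 10 nM it was -0.59 (limma, adjusted p = 0.865), and at 100 pM 0.01. In the order of group medians, 1 µM stood last at 2.84 FPKM and 10 nM next at 5.86 FPKM, and the other 6 groups lay between 6.81 and 8.88 FPKM with overlapping ranges.

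NR0B2, the repressor that NR1H4 induces, read 3.60, 1.85, 1.37, 1.55 and 1.46 FPKM in control, 5.43, 4.01, 0.874, 3.74 and 1.73 FPKM at 10 nM and 1.63, 2.52, 1.43, 1.37 and 1.02 FPKM at 1 µM. The groups overlapped throughout. The log2 difference was 0.40 at 10 nM and -0.17 at 1 µM (limma, adjusted p = 0.865 and 0.785), so NR0B2 gave no call where NR1H4 did. Within a library, NR0B2 stood at 0.199 to 0.296 of NR1H4 in the controls and at 0.352 to 1.01 of it at 1 µM. Because NR1H4 itself fell, a gene with an unchanged level is higher on this ratio. The share of all genes that separate on it was not derived, so the ratio is no result about NR0B2.

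The calls of BAAT and NR1H4 at 1 µM depended on the libraries included. Leaving out any 1 of control replicates 1, 2, 3 and 4 or of 1 µM replicates 1, 3 and 5 ended both calls, with adjusted p from 0.0504 to 0.10 for BAAT and from 0.0591 to 0.138 for NR1H4 (limma). Without the 5 libraries with the fewest transcripts both passed, at -0.95 and -1.13 on the log2 scale (limma, adjusted p = 0.0109 for each). This setting was added after the data were seen. It left out control replicate 5 and replicates 1 and 5 at 1 µM among others. The cut was narrow, as the last library left out had 99313 transcripts and the first one kept 99547. In the test across all 4 groups of the PCB 126 table neither passed (limma, adjusted p = 0.0748 for BAAT and 0.0691 for NR1H4), where 1.39% of all genes did. Both passed there under several of the alternatives, among them 75th percentile scaling and a fit of all 40 libraries.

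**Figure D2:**
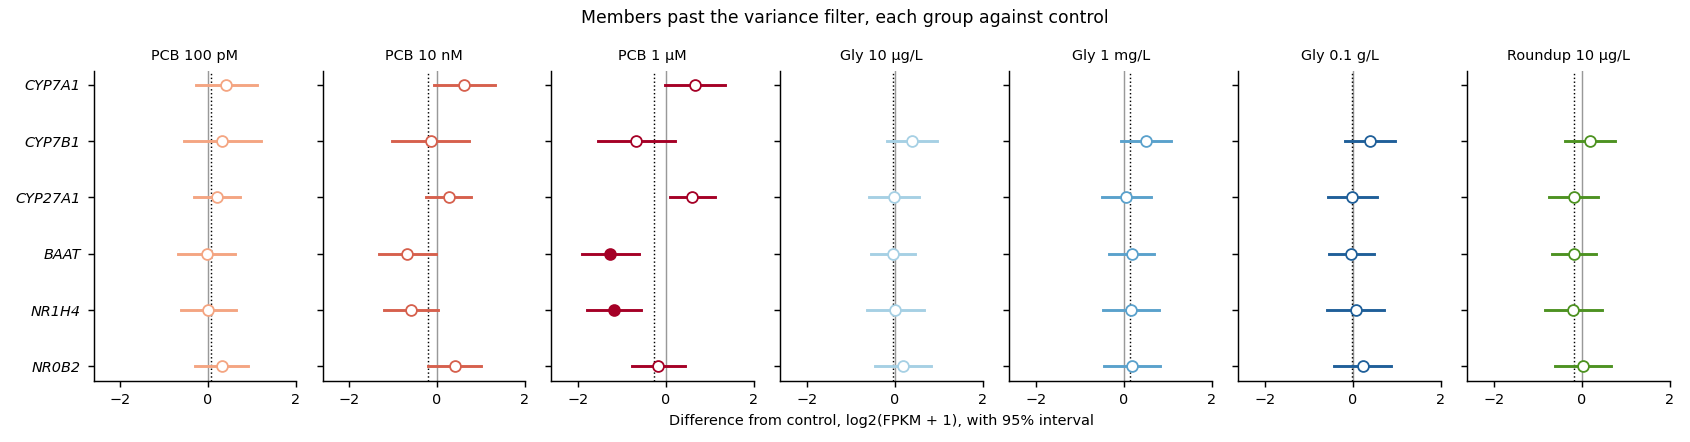
Difference of log2(FPKM + 1) from control (horizontal axis) for the bile acid genes that passed the variance filter (vertical axis), with 95% intervals, 1 panel per exposure. Filled points passed an adjusted p of 0.05 and open points did not, the grey line marks 0 and the dotted line the median of all genes tested. The 2 filled points, BAAT at -1.26 and NR1H4 at -1.19, are in the 1 µM PCB 126 panel, and CYP7A1 was not tested in the herbicide table.

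The starts of NR1H4 transcripts fall into separate regions of chromosome 12, and the tables list 9 of its transcripts (GRCh38, positions 100473708 to 100564413, plus strand). Of these, 5 start between 100473708 and 100473955 and 4 start between 100493301 and 100503453. The split was made after the values were seen. Transcripts with the upstream starts summed to 8.52, 6.56, 4.71, 5.58 and 2.95 FPKM in control and to 1.49, 3.08, 2.76, 3.74 and 2.85 FPKM at 1 µM, so that the groups overlapped (exact permutation, p = 0.0238). Transcripts with the downstream starts summed to 6.15, 2.11, 2.18, 1.19 and 2.00 FPKM in control. They summed to 1.89, 0.282, 0.383, 0.159 and 0 FPKM at 10 nM, and to 0.125, 0.718, 0.0543, 0.160 and 0 FPKM at 1 µM. At 1 µM all 5 libraries were under every control (exact permutation, p = 0.00794), and at 10 nM 4 of 5 were (exact permutation, p = 0.0159). How often such partial sums of other genes separate from control was not derived, so the separation cannot be set against a background. The downstream starts gave 31.2% ± 10.4 of NR1H4 FPKM in control (SD, n = 5) and 6.53% ± 7.48 at 1 µM (exact permutation, p = 0.0159). The share was 9.14% ± 10.7 at 10 nM (exact permutation, p = 0.0238) and 26.5% ± 14.6 at 100 pM (exact permutation, p = 0.611), unadjusted among 21 tests of the upstream sum, the downstream sum and the share. In the 4 herbicide groups the mean share was 23.4% to 29.6%, with no exact p under 0.381. Taken by its most abundant transcript alone, which has an upstream start, NR1H4 differed by -0.39 on the log2 scale at 1 µM and did not pass (limma, adjusted p = 0.607). Transcripts with upstream starts were uneven too. ENST00000392986 averaged 2.22 FPKM in control and 1.45 at 1 µM, while ENST00000549996 read 2.71 and 0.75 FPKM in control replicates 1 and 2 and was listed at 0 in the other 3 controls and throughout 1 µM. These shares are estimates made from short reads over exons that the transcripts largely share.

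**Figure D3:**
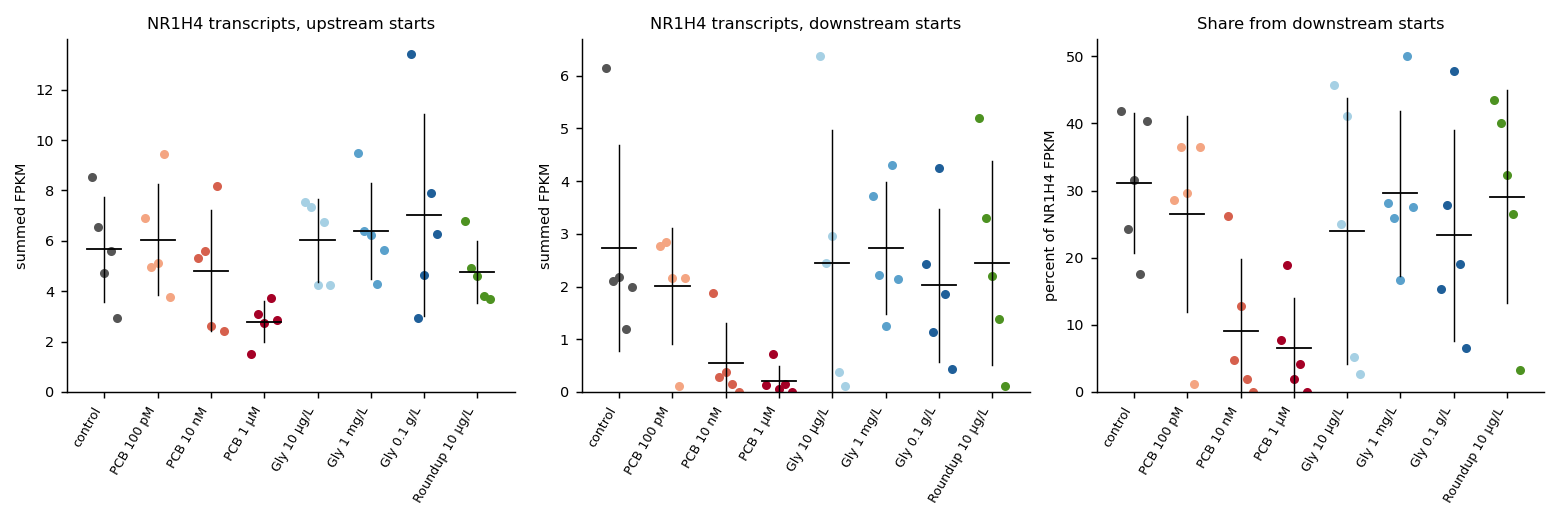
Summed FPKM of NR1H4 transcripts with upstream starts (left) and downstream starts (middle), and the percent of NR1H4 FPKM from downstream starts (right), in the 5 libraries of each group. Points are libraries, horizontal bars means and vertical bars 1 SD, cut at 0. The downstream sum was 1.19 to 6.15 FPKM in control and 0 to 0.718 FPKM at 1 µM.

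The sequences before the starts of the genes that fell are shown because the receptor for PCB 126 and the bile acid receptors act through short DNA motifs. They are the 250 bases before the downstream NR1H4 start at chr12:100503110-100503359, plus strand, and before a BAAT start at chr9:101383874-101384123, minus strand (RefSeq, GRCh38.p14). AGGTCA or its reverse complement TGACCT is in capitals. The main BAAT transcript in the tables starts at 101383519, downstream of the printed window. That start lies inside the other RefSeq BAAT window, 101383515 to 101383814, which is not printed.
NR1H4: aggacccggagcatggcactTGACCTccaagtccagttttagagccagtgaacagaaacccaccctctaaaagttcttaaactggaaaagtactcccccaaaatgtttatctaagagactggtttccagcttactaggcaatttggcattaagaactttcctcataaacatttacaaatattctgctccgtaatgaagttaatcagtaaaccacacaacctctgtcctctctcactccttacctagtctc
BAAT: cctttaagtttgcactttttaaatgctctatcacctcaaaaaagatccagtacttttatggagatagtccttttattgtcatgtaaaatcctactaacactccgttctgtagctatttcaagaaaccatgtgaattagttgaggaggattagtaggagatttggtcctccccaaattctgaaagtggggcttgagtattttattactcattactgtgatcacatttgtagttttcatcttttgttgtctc

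RefSeq windows of 250 bases before to 50 after a start were matched for 6 members, with 7 windows in all. The NR1H4 window lies at the downstream start, and the upstream NR1H4 starts were not searched. CYP7A1, CYP7B1, CYP8B1 and NR0B2 had no window here and were not searched either. GCGTG, the core of the element bound by the dioxin receptor, was searched on both strands and was in 0 of the 7 windows, against 36.5% of the 35116 windows of that length. AGGTCA, the hexamer that nuclear receptors recognise, was in 3 of the 7 windows, against 13.8% of all windows. These were the NR1H4 window, where it begins 230 bases before the start, the SLC10A1 window, and the BAAT window that is not printed, at 101383515 to 101383814. No match overlapped another motif, and a match is a description of the sequence and not a binding site. Sequence outside the windows was not searched, so the 0 of 7 for GCGTG says nothing about sites elsewhere.

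The other genes of the pathway were counted by role. Of 44 such genes, 29 passed the variance filter in the PCB 126 table. At 1 µM 1 was higher and 1 lower, where 0.646% of all genes tested were higher and 1.22% lower. The median difference was -0.25 against -0.26 over all genes. ABCG2, an ATP-dependent efflux transporter, rose from 0.112, 0.489, 0.692, 0.970 and 0.158 FPKM in control to 2.31, 6.78, 6.16, 4.92 and 2.10 FPKM at 1 µM, with no overlap (log2 difference 1.81 ± 0.31 SE, limma, adjusted p = 0.00131). At 10 nM it read 1.48 to 2.85 FPKM and did not pass (difference 1.17, limma, adjusted p = 0.180). ABCG2 passed the variance filter in the PCB 126 data but not in the herbicide data. Its high values in the PCB 126 groups let it into the test, so its call rests on a filter that the same values decided. SLCO1B1, which takes up organic anions including bile acids, fell from 17.5, 14.0, 9.94, 18.1 and 8.99 FPKM in control to 0.712, 4.75, 3.80, 7.17 and 2.65 FPKM at 1 µM, again with no overlap (difference -1.74 ± 0.38 SE, limma, adjusted p = 0.0108). These were 1 of 6 tested canalicular export genes and 1 of 2 tested uptake transporters. Over all genes tested, 0.707% had all 5 values at 1 µM above the 5 control values and 1.64% had all 5 under them.

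In the other roles no gene passed at any PCB 126 concentration. Of the other synthesis and side-chain enzymes 8 of 12 were tested, with a median difference of -0.24 at 1 µM, and the most abundant in control, the peroxisomal thiolase SCP2, differed by -0.16. Of the regulators and signals 6 of 12 were tested, and RXRA, the partner of NR1H4 on DNA, read 14.0 to 27.9 FPKM in control and 8.97 to 30.7 FPKM at 1 µM (difference -0.06, limma, adjusted p = 0.941). Of the basolateral exporters 2 of 4 were tested, and ABCC3 read 29.9 to 63.6 FPKM in control and 31.0 to 65.4 FPKM at 1 µM (difference 0.00). All 5 detoxification genes were tested, and EPHX1, the microsomal epoxide hydrolase, differed by -0.41 (limma, adjusted p = 0.514).

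Markers of the cell types in the culture were read beside these results. Of 10 hepatocyte markers 9 were tested, and 3 passed as lower at 1 µM, where 1.22% of all genes tested were lower. They were the carrier TTR, the fibrinogen chain FGB and the urea cycle enzyme CPS1, and the median difference over the list was -1.08. The summed hepatocyte markers ranged from 14614 to 21308 FPKM in control, 8579 to 22661 FPKM at 10 nM and 5713 to 14516 FPKM at 1 µM, and no marker was at 0 throughout a group. Of 10 biliary and progenitor markers 4 were tested and 0 passed (limma), with a median difference of -0.78 at 1 µM. The sum of the 10 ranged from 279.6 to 536 FPKM in control and 165 to 286 FPKM at 1 µM, where 1 of them was at 0 in every library. Of 10 mesenchymal markers 6 were tested, with a median difference of -0.05 at 1 µM, and 3 of the 6 differences were positive. COL3A1 was the only one that passed, and it was lower. The sum of the 10 ranged from 41.3 to 92.8 FPKM in control (median 84.0). At 1 µM it ranged from 51.0 to 191 FPKM (median 168), with 1 marker at 0 in every library. In bulk RNA, fewer cells of a type and less RNA per cell cannot be told apart, and the part of these shifts in the results on BAAT and NR1H4 was not tested.

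Set against the summed hepatocyte markers of the same library, a quantity chosen after the values were seen, the bile acid genes stood apart from each other. The median marker sum was 21150 FPKM in control and 9835 FPKM at 1 µM, so that a gene with an unchanged level is higher on this scale. BAAT per 1000 FPKM of marker sum was 1.99 to 2.49 in control and 1.12 to 2.22 at 1 µM, and NR1H4 was 0.318 to 0.691 in control and 0.269 to 0.380 at 1 µM, so both overlapped. CYP27A1 was 0.483 to 0.695 in control, 0.775 to 1.16 at 10 nM and 1.29 to 2.92 at 1 µM. CYP7A1 was 0.0474 to 0.0755 in control, 0.124 to 0.255 at 10 nM and 0.0797 to 0.392 at 1 µM. For CYP27A1 and CYP7A1 every library at 10 nM and at 1 µM was above every control on this relative scale. The same held for 1.96% of the 9746 genes compared in this way. CYP7A1 met the variance filter only through its values in the exposed groups, and unscaled its lowest library at 1 µM (0.455 FPKM) was under every control. Its separation on this scale is therefore no result about its level. The ratio of CYP27A1 to BAAT was 0.202 to 0.323 in control, 0.245 to 0.384 at 100 pM, 0.375 to 0.649 at 10 nM and 0.705 to 2.61 at 1 µM, so that the last 2 groups overlapped neither control nor each other. This ratio combines the values of both genes given above, and 0.882% of 9754 genes set against BAAT had ratios ordered without overlap in the same way.

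**Figure D4:**
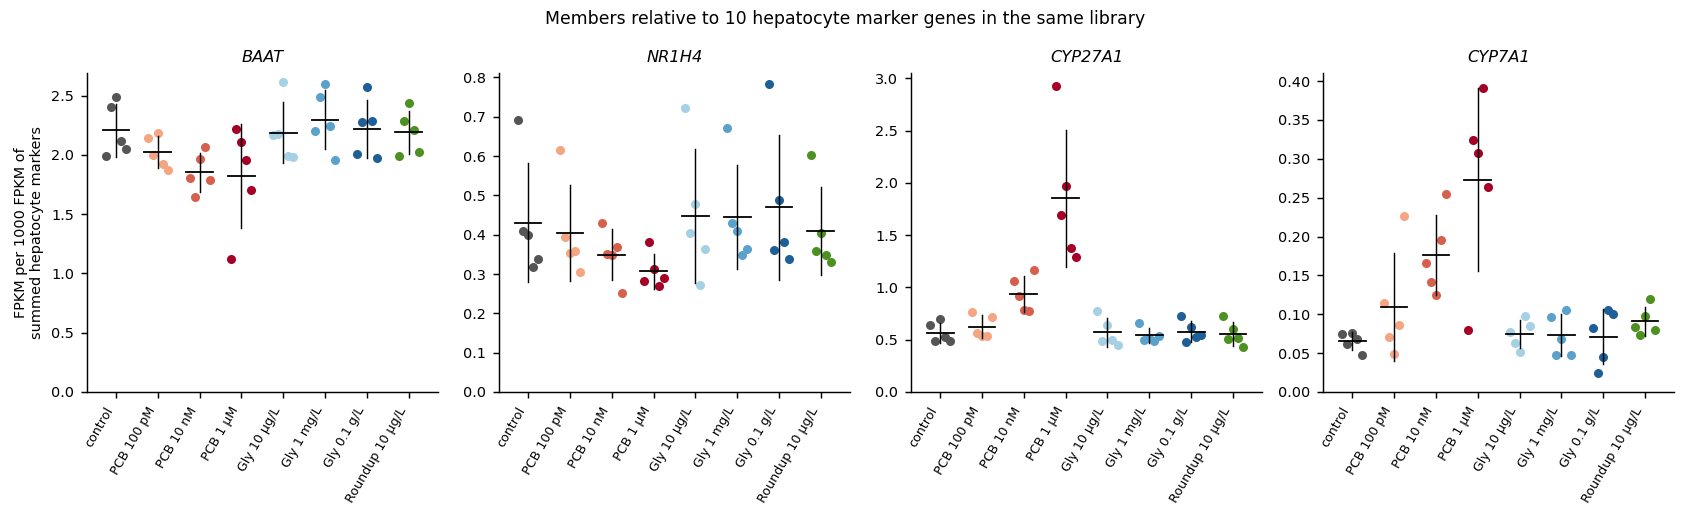
Levels of BAAT, NR1H4, CYP27A1 and CYP7A1 per 1000 FPKM of 10 summed hepatocyte markers in the same library (vertical axes, linear), for the 5 libraries of each group. Points are libraries, horizontal bars means and vertical bars 1 SD. BAAT and NR1H4 overlapped control at 1 µM PCB 126, while CYP27A1 (1.29 to 2.92) and CYP7A1 (0.0797 to 0.392) lay above it. The median marker sum was lower at 1 µM than in control, which raises an unchanged gene on this scale.

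Glyphosate and Roundup were compared with the same control libraries, and Roundup with glyphosate at the matched 10 µg/L. In the herbicide data, 5 members and 9533 genes in all were tested, CYP7A1 not among them. In each of these comparisons and across the herbicide groups, 0% of all genes passed (limma). An unadjusted p under 0.05 was found for 84 to 165 genes (limma), fewer than that cut gives by chance alone. The fit was thus cautious here, for a reason not tested, and 0% does not show that the groups were equal. Over the 4 comparisons with control the member differences lay between -0.20 and 0.50 on the log2 scale, with 95% intervals within -0.84 to 1.07 and adjusted p of 0.902 or more (limma). The highest was CYP7B1 at 1 mg/L glyphosate, which read 8.47 to 11.3 FPKM against 4.54 to 11.3 FPKM in control (exact permutation, p = 0.0794). This was the smallest of the 50 exact p-values of the 10 genes in the herbicide comparisons, and none of those groups separated from its control.

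BAAT read 23.9 to 52.8 FPKM at 10 µg/L glyphosate, 41.9 to 55.7 at 1 mg/L, 25.7 to 58.5 at 0.1 g/L and 23.3 to 52.7 FPKM with Roundup, all overlapping the control range of 29.9 to 50.8 FPKM. NR1H4 read 3.80 to 15.8 FPKM over the 20 herbicide libraries and CYP27A1 4.95 to 14.9 FPKM. CYP7A1 read 0.268 to 2.70 FPKM in those libraries. With Roundup it read 1.67, 1.69, 1.64, 1.78 and 0.915 FPKM, where 4 of 5 were above the highest control of 1.58 FPKM (exact permutation, p = 0.333). SLC27A5 read 2.10, 1.48, 1.10, 0.510 and 0.364 FPKM with Roundup against 0.523, 0.833, 0.596, 0.591 and 0.229 FPKM in control. It was higher than every control in 3 of 5 libraries (exact permutation, p = 0.167). Between Roundup and glyphosate at 10 µg/L the 5 tested members differed by -0.21 to -0.14 on the log2 scale, with 95% intervals within -0.86 to 0.49 (limma, adjusted p = 0.974), beside a median of -0.14 over all genes. Of the 44 other bile acid genes 28 were tested in this table and 0 passed (limma).

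The genes whose group means of log2(FPKM + 1) most resembled those of CYP7A1 were sought over the 8 groups among 12647 genes. They were IGFBP1 (r = 0.981), ALDH1A3 (0.968), RUNX2 (0.966), CYP1A2 (0.966) and SUSD4 (0.966). IGFBP1 encodes an insulin-like growth factor binding protein, ALDH1A3 a retinaldehyde dehydrogenase, RUNX2 a transcription factor and CYP1A2 a target of the dioxin receptor. For CYP1A2 the group means of log2(FPKM + 1) were 0.93 in control, 3.71 at 100 pM, 7.66 at 10 nM, 7.09 at 1 µM and 0.65 to 1.00 in the herbicide groups. These are descriptions over 8 group means that share 1 set of controls.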

How the data were processed

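RNA of 40 HepaRG libraries was sequenced after ribosomal RNA depletion with a directional kit. The authors aligned the reads with HISAT2 to GRCh38 and assembled transcripts with StringTie, and the deposited tables hold FPKM per transcript for 20 and 25 libraries, with the same 5 controls in each. The deposited columns recorded here as score are FPKM columns of libraries with a few values below 0. Libraries were grouped by the treatment in the labels and numbered in accession order. FPKM was summed by gene name, after 4 and 6 negative values were set to 0. A pseudocount of 1 was added, genes with a variance of FPKM of at most 1 were left out, and limma 3.58.1 (R 4.3.3) was fitted to all libraries of a table, and the fit was tested on simulated data. Exact permutation tests over 252 splits are two-sided. For gene levels they take the difference in mean log2(FPKM + 1). For the NR1H4 start regions they take the difference in mean of the untransformed sums and shares. The tables hold FPKM and no counts, so no counting intervals are given, and read totals of the libraries were not used here. The members and lists were chosen with earlier results of these data known. Text names all 10 members, other pathway genes past the threshold (at most 3 a role) or else the most abundant in control, CYP1A1, and the 5 genes most like CYP7A1. Alternatives covered the pseudocount, filters, scaling, model, transcript choice and each library left out.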

Additional observations from a re-analysis of the deposited data

Results flagged for a closer look

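Of 80 groups of 5 libraries (10 genes in 8 groups), 5 held a library set apart from the other 4 by Dixon's test, where chance gives about 1 in 20. In control, replicate 1 had 3.60 FPKM of NR0B2 against at most 1.85 FPKM in the others. At 1 mg/L glyphosate, replicate 1 had 13.2 FPKM of NR1H4 against at most 8.61 FPKM. With Roundup, replicate 5 had 0.915 FPKM of CYP7A1 against at least 1.64 FPKM, and replicate 1 had 0.722 FPKM of CYP8B1 against at most 0.324 FPKM. At 10 nM PCB 126, replicate 4 had 0.971 FPKM of SLC10A1 against at most 0.466 FPKM.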

How the results depend on the processing

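For 1 µM against control, 2 members passed. A pseudocount of 0.1 left 1 (NR1H4), and no variance filter, a fit of these groups only and the most abundant transcript of each gene left 0. Rescaling to the 75th percentile, quantile normalization, TPM scaling and a linear model with a library-size term gave 3, adding CYP27A1. Leaving out 1 library gave 0 to 2. The adjusted p ranged over all alternatives from 0.000592 to 0.118 for BAAT and from 0.00162 to 0.607 for NR1H4. Across the PCB 126 groups 0 members passed. There 75th percentile scaling, quantile normalization and TPM scaling gave 3, the linear model 1, trended limma and a fit of all 40 libraries 2, and leaving out 1 library 0 to 2. After seeing the data, 2 alternatives were added, leaving out the libraries with the fewest transcripts and the replicate block with 75th percentile scaling, and each gave 3 across the groups and at 1 µM. At 100 pM, at 10 nM and for the herbicides 0 members passed under every setting run. Of 1066 alternative values of member differences, 78 changed sign, none of them a call. The cause of these changes was not tested.

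Over all genes, 182 passed at 1 µM (63 higher, 119 lower), against 123 with the most abundant transcript, 298 with all 40 libraries, 498 with the linear model (271 higher, 227 lower), 592 at the 75th percentile, 838 by TPM and 1125 after quantile normalization (510 higher, 615 lower). Leaving out the libraries with the fewest transcripts gave 526, the block with 75th percentile scaling 764, and leaving out 1 library 118 to 365. At 10 nM 20 passed, and 14 to 173 over all alternatives, and across the groups 136 passed, and 88 to 738. Library numbers in the titles form 5 runs with 1 library per group, and 12 of 35 same-run pairs correlated above 0.1. Of the 35 exposed libraries, 23 were closest to the control of their run. Each had 5 controls to match, so this is more than an even draw would give. The main tests take no account of the run. The replicate block by run kept 2 members at 1 µM, gave 2 across the groups, and raised the count of all genes to 357. Fragment counts were not derived, and levels below 1 FPKM limit SLC10A1, ABCB11, SLC27A5 and CYP8B1.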

Other observations

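NR1H4 was highest in replicate 1 in 6 of the 8 groups, namely control, 100 pM PCB 126 and the 4 herbicide groups, with 14.7 FPKM in control and 12 to 15.8 FPKM in the herbicide groups. NR0B2 was highest in replicate 1 in 7 of the 8 groups, with 3.60 FPKM in control, 5.43 FPKM at 10 nM and 4.40 to 4.98 FPKM in the herbicide groups. At 1 µM, replicate 1 was the lowest library for NR1H4 (1.61 FPKM) and replicate 2 the highest for NR0B2 (2.52 FPKM). The replicate 1 libraries carry consecutive numbers in their titles, and what else they share is not given in the sources used here.

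At 100 pM PCB 126, the libraries ranged widely in the exposure check, and CYP1A1 read 71.0, 36.4, 3.21, 1.09 and 319 FPKM. CYP7A1 read 1.81, 1.40, 1.00, 2.29 and 4.41 FPKM in the same libraries, so that replicate 5 was the highest for both genes. CYP27A1 read 12, 11.1, 11, 14.4 and 14.0 FPKM there, and BAAT 33.8, 39.5, 45.0, 51.3 and 36.6 FPKM.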
